A study of Mus musculus with 16 samples.

Results

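Tmc3, Olah, Fbxl16 and MGC106740 are 4 of the 27128 genes quantified in germline stem cells (GSCs) of the mouse, spermatogonia-derived cells that keep stem cell activity in culture. They were chosen by the measured ratios of the inhibitor series, because their RNA was at least 2-fold above the DMSO control at all 3 doses of UNC0638, an inhibitor of the histone methyltransferases G9a (Ehmt2) and GLP (Ehmt1). The inhibitor series is therefore a description of the genes as chosen, with no test, and the other 3 experiments hold values that the choice did not use. All 4 genes were among the 14301 that passed a mean of 1 CPM (counts scaled so that library sizes match) over the 12 RNA libraries.

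The cells came from B6;CBA-Tg(Pou5f1-EGFP)2Mnn/J mice at postnatal day 5.5, and every library carries that Oct4-GFP transgene, in which the Pou5f1 (Oct4) promoter drives GFP. Germ cells that expressed GFP and lacked KIT were sorted and grown in StemPro-34 SFM, a medium without serum, to which GDNF, bFGF and EGF were added. Feeder removal was followed in cells on mouse embryonic fibroblasts (MEF, day 0) and at 4 and 9 days after transfer to Matrigel, a basement membrane extract. Matrigel density was compared at 0.1 µg/cm2, where cells were epithelial-like, and 10 µg/cm2, where they were mesenchymal-like. Cells grown at 10 µg/cm2 were also sorted by GFP into low, mid and high fractions. The inhibitor series was grown on MEF with DMSO, the solvent, or with 0.5, 1 or 2 µM UNC0638, and the labels give 48 hours for the inhibitor. Each of these 12 groups had 1 library, so the spread between replicates is unknown and no test across conditions was made. The labels name no animals or pools, and the MEF cultures can contribute feeder RNA. A further 4 ATAC-seq libraries were not analysed here.

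G9a and GLP place methyl groups on histone H3 at genes that are kept silent, and in embryonic stem cells they act beside a Polycomb complex that holds germline genes off. UNC0638 blocks their catalytic site, so it is used to ask which genes depend on that activity. Tmc3 belongs to the transmembrane channel-like family, whose members Tmc1 and Tmc2 form the mechanically gated channel of inner ear hair cells. Olah encodes oleoyl-ACP hydrolase, the thioesterase that frees medium-chain fatty acids from fatty acid synthase in the lactating mammary gland. Fbxl16 encodes an F-box protein with leucine-rich repeats, a family best known as substrate receptors of SCF ubiquitin ligases. MGC106740 is an X-linked protein-coding locus that RefSeq now calls Gm14685.

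The 4 genes lie on different chromosomes of GRCm38.p6. Tmc3 spans chr7:83584904-83626852, where the noncoding gene Gm16638 overlaps it by 29805 bases; without a stated strand, reads of overlapping genes cannot be told apart. Olah spans chr2:3341987-3366569 and Fbxl16 spans chr17:25808461-25821262. MGC106740 spans chrX:73117030-73129269 and overlaps Xlr5a, listed in the files as Xlr5d, by 1688 bases. Because all 4 genes were higher than in DMSO at every dose, the 250 bases before the RefSeq start site of each are shown, on the strand of the gene, with capitals where a searched motif was found. The windows are chr7:83584681-83584930 (plus strand) for Tmc3, chr2:3366570-3366819 (minus strand) for Olah, chr17:25808211-25808460 (plus strand) for Fbxl16 and chrX:73122818-73123067 (plus strand) for MGC106740. The Tmc3 window runs into the annotated span of its gene, and the MGC106740 window lies inside that of its gene.
Tmc3: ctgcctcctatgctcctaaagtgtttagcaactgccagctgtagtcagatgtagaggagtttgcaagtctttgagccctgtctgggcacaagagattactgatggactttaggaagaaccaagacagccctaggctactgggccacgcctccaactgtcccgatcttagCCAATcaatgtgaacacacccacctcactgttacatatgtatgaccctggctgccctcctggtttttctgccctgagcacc
Olah: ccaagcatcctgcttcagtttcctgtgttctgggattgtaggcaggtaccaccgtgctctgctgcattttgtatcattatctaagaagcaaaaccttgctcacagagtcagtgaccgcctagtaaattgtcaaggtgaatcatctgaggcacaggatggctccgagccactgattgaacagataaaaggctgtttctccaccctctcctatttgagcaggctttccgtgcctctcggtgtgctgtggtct
Fbxl16: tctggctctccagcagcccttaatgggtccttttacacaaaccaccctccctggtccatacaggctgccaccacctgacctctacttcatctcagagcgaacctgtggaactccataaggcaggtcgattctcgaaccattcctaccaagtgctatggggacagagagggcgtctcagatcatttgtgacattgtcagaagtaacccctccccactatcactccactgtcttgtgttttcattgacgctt
MGC106740: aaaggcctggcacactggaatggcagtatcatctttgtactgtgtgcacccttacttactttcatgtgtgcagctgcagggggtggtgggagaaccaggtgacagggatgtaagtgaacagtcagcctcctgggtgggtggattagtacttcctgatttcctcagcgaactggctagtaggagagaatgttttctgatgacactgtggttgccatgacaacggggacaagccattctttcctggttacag
The windows were searched on both strands for 5 short motifs: the E-box CACGTG, the E2F core motif GCGGGA, the CCAAT box spelled as in its name, the GC box GGGCGG and the TATA box TATAAA. The capitals in Tmc3 mark CCAAT, the only match, which overlaps no other motif. It starts 81 bases before the start site (position -81), and 33.8% of 32851 promoters of the same length hold that motif. The other 4 motifs were not found in any of the 4 windows, against 6.02% of all promoters for CACGTG, 16.9% for GCGGGA, 32.7% for GGGCGG and 12.4% for TATAAA. CpG pairs numbered 2 in Tmc3, 5 in Olah, 5 in Fbxl16 and 2 in MGC106740, where the median of all promoters was 6. GC content ran from 49.2% to 51.2%, against a median of 52.4%. A match or its absence describes these letters only.

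The libraries held 4335185 to 12019651 expected counts, and those of the inhibitor series 4335185 to 5777912. All 20 germ cell markers (Ddx4, Dazl, Zbtb16 and others) had counts in every library, with summed levels of 4777 to 8643 CPM. Fibroblast markers differed far more between libraries. The 20 summed to 3764 CPM in DMSO, to 1392, 583 and 757 CPM at 0.5, 1 and 2 µM, and to 420 CPM at day 0. The mesenchymal-like library had 9485 CPM, the epithelial-like library 414 CPM, and the low, mid and high GFP fractions 156, 195 and 334 CPM. Col1a1, Col1a2, Col3a1 and Pdgfrb were detected throughout, and Fap was at 0 counts in 11 of the 12 libraries. In such bulk samples, fewer cells of a type and less RNA per cell cannot be told apart. Days 4 and 9, without feeders, had 428 and 430 CPM, and which cells gave this RNA was not tested. The DMSO library that sets the base of every dose ratio stands apart from its 3 treated partners in these markers.

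The inhibitor series shows what the 4 genes were chosen for. At 0.5 µM all 4 were at least 2-fold above DMSO, as were 1.58% of the 14301 genes, and the shares were 2.59% at 1 µM and 3.42% at 2 µM. At every dose 66 genes (0.462%) met that threshold, which was applied to CPM + 1. The 3 dose ratios share the DMSO library. Tmc3 was the member with the steepest series and Fbxl16 the flattest. In the sentences that follow, folds are ratios of CPM with 95% exact intervals that cover counting error only, since PCR copies were counted without molecular identifiers.

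Tmc3 had 53 counts in DMSO and 199, 329 and 479 counts at 0.5, 1 and 2 µM. As levels these were 10.6, 38.3, 57.4 and 110 CPM, so the order of the libraries followed the order of the doses. The folds over DMSO were 3.62 (2.66 to 5.001), 5.43 (4.05 to 7.40) and 10.4 (7.80 to 14.0). Each step upward in dose was also resolved by counting, with a fold of 1.498 (1.25 to 1.80) from 0.5 to 1 µM and 1.91 (1.66 to 2.21) from 1 to 2 µM. Tmc3 was the only member whose level was higher at each dose than at the dose below, a pattern that 6.5% of all genes had. The choice fixed the first step, from DMSO to 0.5 µM, for every member, so that share is not a yardstick for them. Per length, its deposited TPM moved from percentile 25.3 of the filtered genes in DMSO to percentile 72.4 at 2 µM.

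Olah had 29 counts in DMSO and 112, 113 and 114 counts with rising dose, or 5.79, 21.6, 19.7 and 26.1 CPM. All 3 treated libraries lay above DMSO and close to one another. The folds over DMSO were 3.73 (2.46 to 5.82), 3.41 (2.25 to 5.32) and 4.51 (2.98 to 7.04). Between doses, the fold was 0.914 (0.698 to 1.20) from 0.5 to 1 µM and 1.32 (1.01 to 1.73) from 1 to 2 µM, and over the whole range from 0.5 to 2 µM it was 1.21 (0.925 to 1.59). A difference between the lowest and highest dose was therefore not resolved at this depth, and the interval allows up to 1.59-fold.

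Fbxl16 was lower still, with 15 counts in DMSO and 49, 58 and 40 at the 3 doses. The levels were 2.99, 9.44, 10.1 and 9.16 CPM, again with every treated library above DMSO. The folds were 3.15 (1.74 to 6.05), 3.38 (1.89 to 6.42) and 3.06 (1.65 to 5.96). The treated libraries did not differ from each other beyond counting error, with a fold of 0.971 (0.623 to 1.51) from 0.5 to 2 µM. These intervals are wide because the DMSO value rests on 15 counts.

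MGC106740 had the smallest base of all, an expected count of 11.09 in DMSO against 51.38, 45.67 and 43.33 at the 3 doses. Its levels were 2.20, 9.82, 8.03 and 9.85 CPM. The folds over DMSO were 4.47 (2.30 to 9.52), 3.66 (1.87 to 7.83) and 4.49 (2.27 to 9.65), with no order by dose. Unlike the other members, its expected count was not a whole number in any of the 12 libraries, the mark of reads that RSEM divided among several genes. Fbxl16 had such a value in 1 library, and Tmc3 and Olah in none.

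**Figure D1:**
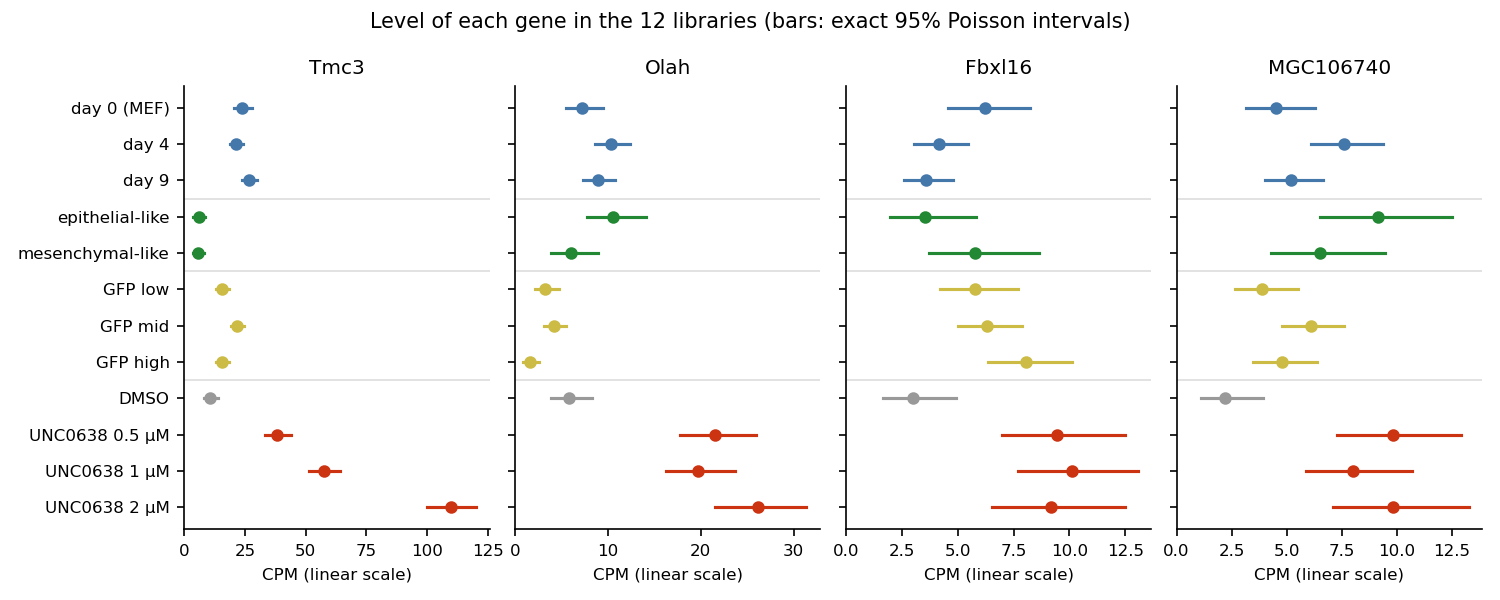
Level of each gene (CPM, linear axis, a scale of its own in each panel) in the 12 libraries, 1 point per library, with exact 95% Poisson intervals as bars and lines between the 4 experiments. Tmc3 climbs from 10.6 CPM in DMSO to 110 CPM at 2 µM, whereas the 3 treated points of the other genes lie close together.

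The partner that shared reads with MGC106740 could be found in the tables. Among 14134 genes with counts in all libraries, DXBay18 was the only one whose expected count added to that of MGC106740 to give a whole number, within 0.011, in all 12 libraries. DXBay18 is the next gene on the X chromosome, at chrX:73137223-73149466, 7954 bases from MGC106740. Its expected counts were 61.91 in DMSO and 36.62, 57.33 and 60.67 at the 3 doses. The pair together had 73 counts in DMSO and 88, 103 and 104 counts with inhibitor, or 14.6, 16.9, 17.98 and 23.8 CPM. The folds of the pair were 1.16 (0.843 to 1.61), 1.23 (0.905 to 1.69) and 1.63 (1.20 to 2.24), and no dose reached 2-fold. MGC106740 received 15.2% of the pair's reads in DMSO, and 58.4%, 44.3% and 41.7% at the 3 doses. In the other 8 libraries its share ran from 41.1% to 65.7%, so the DMSO library is the one that stands apart. A change in MGC106740 and a change in how the shared reads were divided cannot be told apart in these tables. With the pair in place of MGC106740, 3 of the 4 genes were at least 2-fold above DMSO at every dose.

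**Figure D2:**
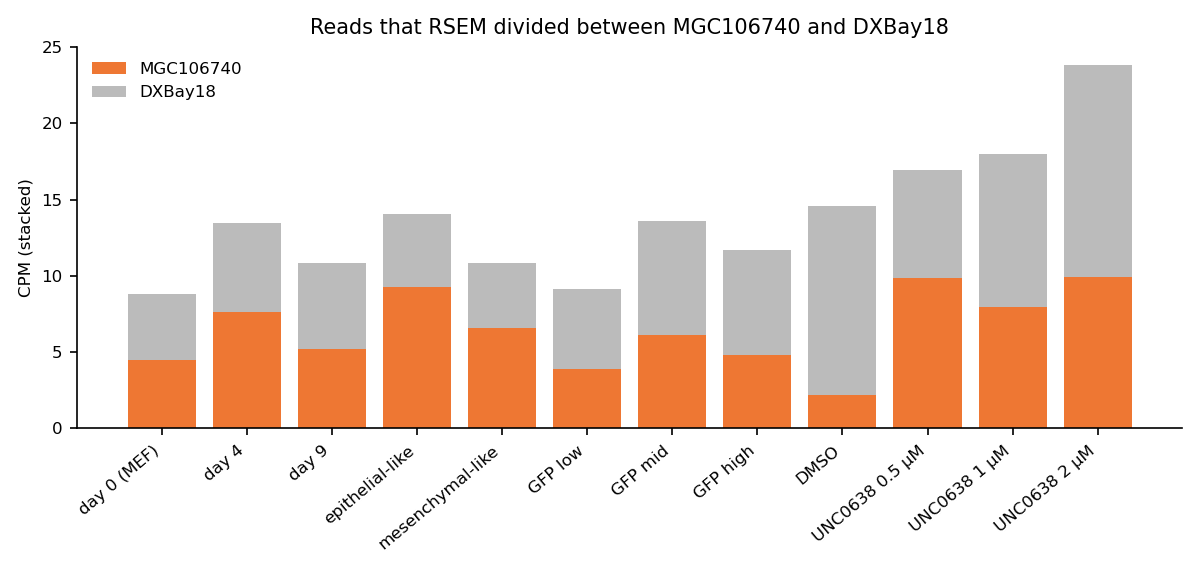
Stacked CPM of MGC106740 and DXBay18, whose expected counts add to whole numbers in every library, for the 12 libraries. The pair's total moves from 14.6 CPM in DMSO to 23.8 CPM at 2 µM, while the MGC106740 segment moves from 15.2% to 41.7% of that total.

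The fibroblast markers moved with the dose ratios and in the opposite direction. Of the 19 that passed the filter, 11 were at least 2-fold lower than in DMSO at 0.5 µM, 18 at 1 µM and 16 at 2 µM, where 2.13%, 4.12% and 3.59% of all genes were. Their median log2 ratios were -1.14, -2.56 and -2.05, beside medians of -0.01, -0.0019 and -0.02 over all genes. The germ cell markers summed to 6208 CPM in DMSO and to 6814, 6660 and 5900 CPM with inhibitor, and none of the 20 differed 2-fold, where 3.71%, 6.71% and 7.01% of all genes did, shares at which a count of 0 says little. With the libraries scaled to those germ cell markers, the log2 ratios of CPM + 1 were 1.64, 2.25 and 3.34 for Tmc3, against 1.76, 2.33 and 3.26 with the standard scaling. For Olah they were 1.62, 1.53 and 2.09, for Fbxl16 1.29, 1.41 and 1.44, and for MGC106740 alone 1.68, 1.45 and 1.87. These are the ratios the genes were chosen by, and the part of the fibroblast RNA in them was not tested.

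**Figure D3:**
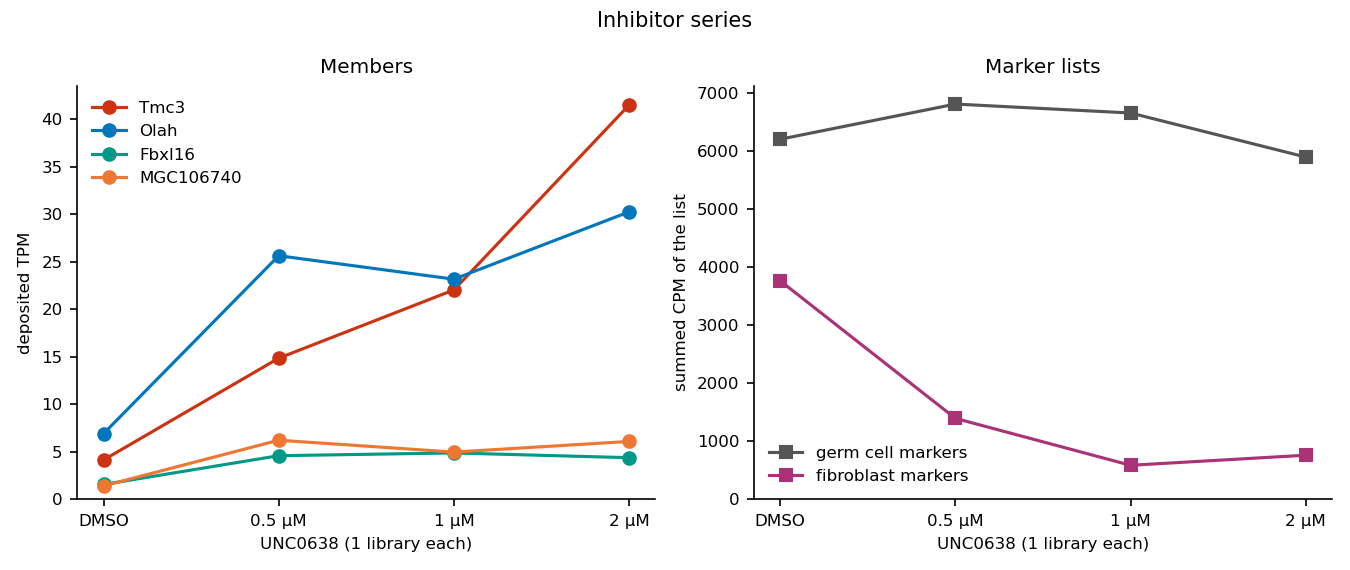
Left, deposited TPM of the 4 genes in DMSO and at 0.5, 1 and 2 µM UNC0638, 1 library each and doses evenly spaced; right, summed CPM of the germ cell and fibroblast marker lists in the same libraries. Tmc3 passes Olah between 1 and 2 µM, and the fibroblast sum goes from 3764 CPM in DMSO to 757 CPM at 2 µM while the germ cell sum stays between 5900 and 6814 CPM.

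Levels between genes can be compared per length in the deposited TPM. In DMSO, Olah stood at 6.90 TPM, Tmc3 at 4.12, Fbxl16 at 1.54 and MGC106740 at 1.39. At 2 µM, Tmc3 came first at 41.5 TPM, followed by Olah at 30.25, MGC106740 at 6.07 and Fbxl16 at 4.36. The Tmc3 to Olah ratio of TPM was 0.597 in DMSO, 0.579 and 0.951 at 0.5 and 1 µM, and 1.37 at 2 µM.

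Whether the genes follow Oct4-GFP was read from the sorted fractions, which share no library with the inhibitor series. Pou5f1, the gene whose promoter the reporter uses, was at 83.9, 176 and 367 CPM in the low, mid and high fractions, a fold of 4.37 (4.02 to 4.76) from low to high. None of the 4 genes was 2-fold different between GFP high and GFP low, where 9.54% of all genes were. The levels of the single genes show different orders of the fractions.

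Tmc3 was at 15.5 CPM in GFP low, 21.7 in GFP mid and 15.6 in GFP high. Its high to low fold was 1.00 (0.785 to 1.29), whereas the mid fraction was above both others, by 1.40 (1.12 to 1.74) over low and with a high to mid fold of 0.719 (0.585 to 0.882). Tmc3 therefore did not follow the GFP order. Olah was at 3.26, 4.197 and 1.59 CPM, from 26, 53 and 15 counts. It was the only member lower in GFP high than in GFP low, with a fold of 0.488 (0.240 to 0.957), although on CPM + 1 the log2 ratio of -0.72 stayed under 2-fold. The high to mid fold was 0.379 (0.199 to 0.683).

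Fbxl16 was at 5.77, 6.34 and 8.07 CPM, the only member in the order of the GFP fractions, an order that 24.5% of all genes had. Its high to low fold of 1.40 (0.957 to 2.06) was within counting error. MGC106740 was at 3.89, 6.10 and 4.78 CPM with a high to low fold of 1.23 (0.761 to 2.01), and the pair with DXBay18 was at 9.15, 13.6 and 11.7 CPM. Tmc3, Olah and MGC106740 had their highest level in the mid fraction, as 23.4% of all genes did. Myeloid markers such as Csf1r and Ptprc moved with these fractions, the 12 of them summing to 1837, 1626 and 217 CPM in low, mid and high. Fibroblast markers moved as well, summing to 156, 195 and 334 CPM, with 9 of 19 filtered ones at least 2-fold higher in high than in low and a median log2 ratio of 0.74, where 6.94% of all genes were 2-fold higher. The part of either list in these values was not tested.

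**Figure D4:**
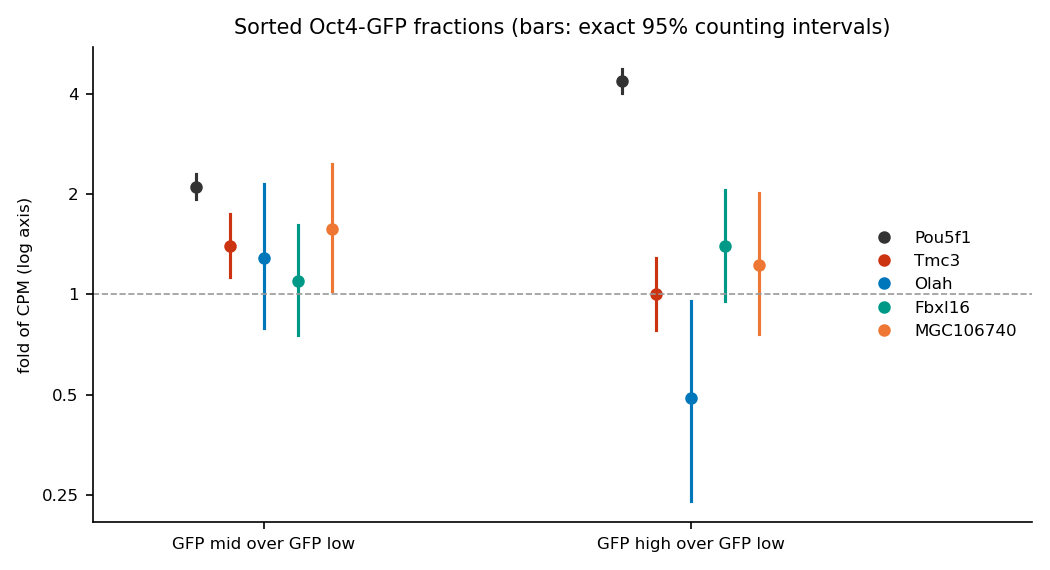
Fold of CPM (log axis) of GFP mid over GFP low and GFP high over GFP low for Pou5f1 and the 4 genes, with exact 95% counting intervals as bars. Pou5f1 reaches 4.37 in GFP high, whereas the high to low folds of the 4 genes lie between 0.488 and 1.40.

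In the inhibitor series the reporter's gene gave a different picture from the members. Pou5f1 was at 43.9 CPM in DMSO and at 54.1, 43.5 and 46.7 CPM at the 3 doses, with folds of 1.23 (1.03 to 1.48), 0.989 (0.822 to 1.19) and 1.06 (0.875 to 1.29). The inhibitor's targets were also measured, with Ehmt2 at 240, 256, 259 and 293 CPM and Ehmt1 at 115, 100, 103 and 124 CPM. UNC0638 acts on the enzymes and not on their transcripts, so these levels do not check the treatment.

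Feeder removal left the 4 genes under the 2-fold threshold at both times, where 2.28% of all genes passed it at day 4 and 2.6% at day 9. Both comparisons share the day 0 library. Tmc3 was at 24.0, 21.4 and 26.8 CPM at days 0, 4 and 9, with folds over day 0 of 0.893 (0.736 to 1.09) and 1.12 (0.929 to 1.34). Olah was at 7.26, 10.3 and 8.95 CPM, and its fold of 1.42 (1.03 to 1.99) at day 4 was resolved by counting, whereas 1.23 (0.886 to 1.73) at day 9 was not. Fbxl16 was the member that was lower on Matrigel at both times, at 6.22, 4.15 and 3.58 CPM. Its folds were 0.666 (0.438 to 1.01) at day 4 and 0.575 (0.373 to 0.885) at day 9. MGC106740 was at 4.54, 7.62 and 5.21 CPM, with folds of 1.68 (1.12 to 2.56) and 1.15 (0.749 to 1.79). The pair with DXBay18 had a fold of 1.53 (1.14 to 2.06) at day 4.

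Between the Matrigel densities none of the 4 genes differed 2-fold, against 12.5% of all genes. Tmc3 was low in both libraries, 5.87 CPM in the epithelial-like and 5.55 CPM in the mesenchymal-like culture, from 25 and 23 counts. The fold of 0.946 (0.513 to 1.74) leaves the direction unresolved, and scaling to germ cell markers turned the log2 ratio from -0.07 to 0.23. Olah was at 10.6 and 6.04 CPM, a fold of 0.572 (0.336 to 0.952). Fbxl16 was at 3.52 and 5.79 CPM, with a fold of 1.65 (0.829 to 3.37), and MGC106740 at 9.15 and 6.52 CPM, with a fold of 0.712 (0.419 to 1.19). The fibroblast sums of 414 and 9485 CPM moved with this comparison. Germ cell markers moved as well, with sums of 6058 and 4777 CPM. Of these 20, 19 were lower in the mesenchymal-like culture, with a median log2 ratio of -0.29 against -0.06 over all genes. The part of either list in these values was not tested. With the standard scaling, Olah was the only member whose counting interval excluded equal levels here, and also between GFP high and GFP low. Germ cell scaling shifts the median log2 ratio of all genes by 0.32 between densities and by 0.09 for GFP. Olah's upper log2 limits of -0.07 and -0.06 lie closer to equal levels than these shifts. The same holds for Fbxl16's lower log2 limits of -0.27 and -0.06, so these calls depend on the scaling.

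The DMSO library was set against day 0 because both are feeder cultures without inhibitor, although from different experiments. The experiment and a batch effect cannot be told apart, and 19.4% of all genes differed 2-fold between them. Fibroblast markers moved with this comparison, 16 of 19 filtered ones at least 2-fold higher in DMSO, with a median log2 ratio of 3.02 and sums of 3764 against 420 CPM. Germ cell markers moved the other way, 16 of 20 lower in DMSO and 4 higher. Their median log2 ratio was -0.53, against 0.01 over all genes, and their sums were 6208 against 8643 CPM. The part of either list in the members' values was not tested. Since the members were chosen against this DMSO library, a low value in it is partly fixed by the choice. On CPM + 1, Tmc3 was the only member at least 2-fold lower in DMSO, as 7.22% of all genes were, with 10.6 against 24.0 CPM and a fold of 0.441 (0.319 to 0.602). With the libraries scaled to the germ cell markers, its log2 ratio moved from -1.11 to -0.66. Fbxl16 had a fold of 0.481 (0.2503 to 0.874) and MGC106740 one of 0.484 (0.222 to 0.975), with log2 ratios of -0.85 and -0.79 on CPM + 1 that became -1.03 and -1.01 with a pseudocount of 0.1. Germ cell scaling shifts the median log2 ratio of all genes by 0.43 here, which brings both genes nearer to equal levels. Olah differed less, at 5.79 against 7.26 CPM with a fold of 0.797 (0.491 to 1.27), and its log2 ratio of -0.28 became 0.13 under germ cell scaling. For the pair of MGC106740 and DXBay18 the direction was the opposite, 14.6 CPM in DMSO against 8.82 CPM at day 0, a fold of 1.65 (1.17 to 2.33).

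**Figure D5:**
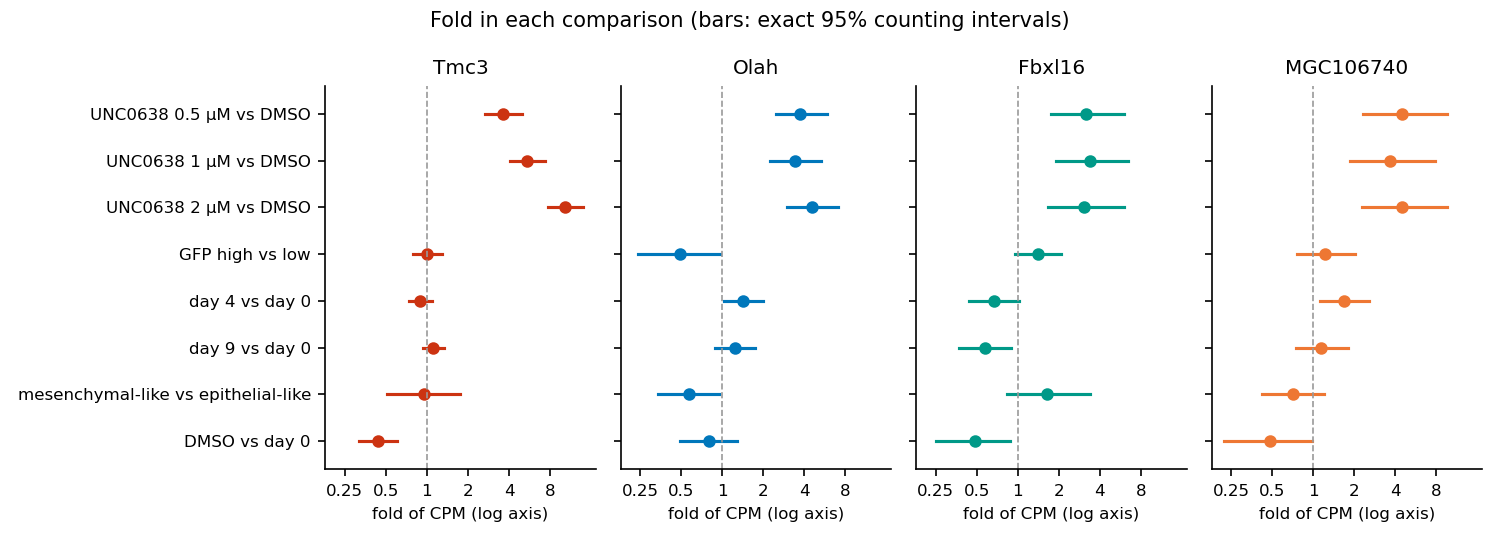
Fold of CPM (log axis) of each gene in the 8 comparisons, with exact 95% counting intervals as bars and a dashed line at equal levels. The 3 dose folds of every gene lie right of the line, while the DMSO to day 0 folds lie left of it, from 0.441 for Tmc3 to 0.797 for Olah.

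Across all 12 libraries the members differed in how far the treated cells left the range of the other experiments. For Tmc3 the lowest treated library exceeded the highest of the 8 libraries outside the inhibitor series, day 9, by 1.43-fold (1.19 to 1.71). For Olah the same comparison, with the epithelial-like library, gave 1.87-fold (1.31 to 2.70). These genes thus had levels under UNC0638 that none of the other 9 libraries reached. For Fbxl16 the corresponding fold was 1.14 (0.754 to 1.69) over GFP high, which is within counting error. For MGC106740 it was 0.877 (0.560 to 1.38), because the epithelial-like library lay above the 1 µM library. All 3 treated libraries were above all 8 others for 3 of the 4 genes, and for 3.19% of all genes. The genes were chosen for high treated values and a low DMSO value, so these counts are a description only. Conversely, Fbxl16 and MGC106740 had their lowest level of all 12 libraries in DMSO, at 0.518 and 0.388 of the median of the other 8, where 9% of all genes had DMSO below all 8. The pair of MGC106740 and DXBay18, in contrast, was higher in DMSO, at 14.6 CPM, than in any of those 8, where it ran from 8.82 to 14.1 CPM. Against that median, the 2 µM level was 5.93 times as high for Tmc3, 3.93 times for Olah, 1.58 times for Fbxl16 and 1.74 times for MGC106740.

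With the 12 libraries in order of level, the 11 steps between neighbours show how finely each gene was resolved. For Tmc3, 6 steps exceeded counting error. The treated libraries came first at 110, 57.4 and 38.3 CPM, each apart from the next and from day 9 at 26.8 CPM. Day 9, day 0, GFP mid and day 4 then formed a run without a resolved step, followed by GFP high and GFP low, then DMSO, then both Matrigel density libraries. For Olah 2 steps were resolved, the one from the treated libraries down to the epithelial-like library and the one from GFP low at 3.26 CPM to GFP high at 1.59 CPM. No step was resolved for Fbxl16 or MGC106740.

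The relatives of each gene were read from gene lists. In the TMC family 4 of 8 genes passed the filter, and the 1 gene at least 2-fold higher at each dose was Tmc3, chosen for it, as 0.462% of all genes were, so nothing is read from this count. Tmc6 was at 84.4 CPM in DMSO and 91.9 CPM at 2 µM, Tmc7 at 32.3 and 27.9 CPM, and Tmc8 at 20.2 and 25.4 CPM. The hair cell channel genes Tmc1 and Tmc2 were under the filter. The median log2 ratio of the 4, Tmc3 included, was 0.09, -0.14 and 0.22 at the 3 doses.

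Of 16 measured genes of fatty acid synthesis and thioesterases, 1 was 2-fold higher at 0.5 µM, 1 at 1 µM and 3 at 2 µM, and Olah, chosen for being higher at every dose, was among them each time. Of all genes, 1.58%, 2.59% and 3.42% were 2-fold higher, so the counts at 0.5 and 1 µM are the chosen gene alone, and nothing is read from a list of this length. Scd1, the desaturase that makes monounsaturated fatty acids, was at 15.8, 24.6, 30.9 and 39.9 CPM from DMSO to 2 µM, with a fold of 2.53 (1.93 to 3.34) at the highest dose. Acot2, a mitochondrial acyl-CoA thioesterase, was at 2.20 CPM in DMSO and 5.96 CPM at 2 µM. Acacb, an acetyl-CoA carboxylase, was the 1 gene of the list at least 2-fold lower at any dose, at 22.2 CPM in DMSO and 9.77 CPM at 1 µM. Fasn, the synthase on which Olah acts, was at 278, 326, 284 and 359 CPM. The list's median log2 ratio was 0.03, 0.04 and 0.07.

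Among 22 filtered genes of the FBXL family and the SCF core, Fbxl16 was 2-fold higher at every dose, and at 2 µM Fbxl14 was as well. Beside the chosen Fbxl16, this is 0, 0 and 1 gene, against the 1.58%, 2.59% and 3.42% of all genes, and does not set the list apart. Fbxl14, an F-box protein that targets Snail factors, was at 7.79, 12.3, 10.1 and 18.1 CPM, with a fold of 2.32 (1.56 to 3.50) at 2 µM. None was 2-fold lower, and the median log2 ratio was 0.03, 0.01 and 0.11. The SCF scaffold Cul1 was at 199 CPM in DMSO and 163 CPM at 2 µM. None of the 13 genes for G9a, GLP and Polycomb partners, and none of the 7 filtered Mage-a genes on the X chromosome, differed 2-fold at any dose, where 3.71%, 6.71% and 7.01% of all genes did at 0.5, 1 and 2 µM, shares at which counts of 0 set neither list apart. Of 6 filtered brain and sensory genes, 1, 2 and 2 were 2-fold higher at the 3 doses, and 1 was 2-fold lower at 2 µM, in a list too short to read against all genes.

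The genes beside the members on their chromosomes were read for the same doses. Stard5, 5165 bases from Tmc3, was at 28.1, 29.8, 27.9 and 22.7 CPM from DMSO to 2 µM. Wdr24, 2365 bases from Fbxl16, was at 36.5, 41.0, 36.0 and 36.9 CPM, and Metrn, 11416 bases away on the other side, at 13.2, 7.51, 14.5 and 15.8 CPM. Acbd7, 989 bases from Olah, had 2, 2, 2 and 4 counts and Meig1 on the other side 4, 5, 10 and 3 counts, too few to read. Xlr5d, which overlaps MGC106740, was at 87.4, 85.9, 86.9 and 85.9 CPM. None of these neighbours differed 2-fold at any dose, as was the case for most genes, since 3.71%, 6.71% and 7.01% did so either way, and a count of 0 in so few genes does not set them apart.

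For each member the genes with the most similar profile were taken by Pearson correlation of log2(CPM + 1) over the 12 libraries, as a description, since all points share the same libraries and 3 of them the inhibitor. For Tmc3 they were Cbr1 (r = 0.871), EG666289 (0.870) and Fdft1 (0.865), an enzyme of sterol synthesis. Fdft1 was at 159 CPM in DMSO and 231, 245 and 253 CPM with inhibitor, and EG666289 at 43.5 and 84.7, 107 and 119 CPM. For Olah they were Pmf1 (0.924), Nfkbib (0.919) and Rbm13 (0.917). For Fbxl16 they were Irf2bp1 (0.890), 5430407P10Rik (0.874) and Ctdsp1 (0.840), and Irf2bp1 was at 15.6 CPM in DMSO and 27.3, 30.5 and 39.6 CPM with inhibitor. For MGC106740 they were Cdc42ep2 (0.825), Spink2 (0.823) and Bnip1 (0.781). Between members, r ran from 0.289 between Olah and Fbxl16 to 0.686 between Olah and MGC106740. All members were chosen for rising over the same DMSO library, so positive r between them is partly fixed by the choice. The values with MGC106740 also rest on how its reads were divided with DXBay18.

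The members can be placed among the 66 genes by their smallest dose ratio, taken from the values they were chosen by, as a description only. The ranking and the threshold of 50 counts were set for this description, so they do not show where the choice was drawn. Of the 66, 18 reached 50 counts in the inhibitor series, and among those 18 the 4 members took ranks 2 to 5 with smallest log2 ratios of 1.76 for Tmc3, 1.61 for Olah, 1.498 for MGC106740 and 1.35 for Fbxl16. Rank 1 was LOC100041500, a predicted locus with 0 counts in DMSO. The first genes below the members were Gpx2, a selenium-dependent glutathione peroxidase, with a smallest log2 ratio of 1.27, and Ott, with 1.26. Gpx2 was at 5.79 CPM in DMSO and 30.8, 20.1 and 15.3 CPM with inhibitor, highest at the lowest dose. Ott, a gene with many X-linked copies among which reads may be shared, was at 29.3, 122, 71.6 and 115 CPM. In the sorted fractions Ott was at 5.14, 85.4 and 89.9 CPM in GFP low, mid and high, a fold of 17.5 (12.8 to 24.6), while the members stayed between 0.488 and 1.40. Of the 66 genes, 13 (19.7%) were at least 2-fold higher in GFP high than in GFP low, against 6.94% of all genes. None of the 4 members was among them, and at such a share a count of 0 in 4 genes does not set them apart. In DMSO against day 0, 31 of the 66 (47.0%) were at least 2-fold lower, against 7.22% of all genes. The 66 were picked for levels above this DMSO library, so that share is partly fixed by the choice.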

How the data were processed

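RNA from 12 libraries, 1 per group by their labels, was sequenced after a modified Smart-seq2 preparation. Trim Galore, RSEM and the build mm10 are named in the submitters' processing notes; versions, the aligner, the annotation and strand are not given in the sources used here. The authors deposited expected counts, the read numbers RSEM estimates per gene, per the file headers, which need not be whole (8.52% to 10.7% of values were not). They also deposited TPM, scaled to length and a fixed total, per the file headers, and used here for levels between genes. The FPKM column was not used.

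Expected counts were rounded and scaled to CPM with TMM factors (0.912 to 1.07) from edgeR 4.0.16 in R 4.3.3. The 3 counts that a count of 0 allows equal 0.238 to 0.724 CPM. Genes were kept at a mean CPM of 1 or more. Ratios are log2(CPM + 1), which understates changes of low genes, and called means at least 2-fold. Intervals are 95% Clopper-Pearson (folds) or exact Poisson (levels). Python 3.11.15 was used with scipy 1.17.1, pandas 2.3.3, numpy 2.4.6 and matplotlib 3.10.9, and the steps were tested on simulated counts.

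The members and lists were chosen with earlier results of these data known. Genes named are the members, their neighbours, the 3 most similar genes each, those adjoining them in the ranking, list genes, Pou5f1, Ehmt1 and Ehmt2; DXBay18 was chosen after its values were seen. Members were matched to RefSeq (GRCm38.p6) by transcript, version ignored, or, for Fbxl16, by symbol. Of 27128 genes, 19512 matched. Alternatives were DESeq2 1.42.0 size factors, total counts, TPM, germ cell scaling, pseudocounts of 0.1 and 5, no filter and a filter at 10 CPM.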

Additional observations from a re-analysis of the deposited data

How the results depend on the processing

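Over 6 alternatives (DESeq2 size factors, total counts, deposited TPM, germ cell scaling, pseudocounts of 0.1 and 5), 192 ratios of the members were recomputed, and 185 stayed within the counting interval. All 72 recomputed dose ratios were positive and 68 remained at least 2-fold. The exceptions came with a pseudocount of 5, for Fbxl16 (log2 ratios of 0.85, 0.92 and 0.83) and for MGC106740 at 1 µM (0.86), which left 2 members at every dose. Tmc3 in DMSO against day 0 fell under 2-fold with a pseudocount of 5 (-0.90) and germ cell scaling (-0.66), and with a pseudocount of 0.1 Fbxl16 (-1.03) and MGC106740 (-1.01) passed it. Germ cell scaling shifts the median log2 ratio of all genes by 0.43 there, by 0.32 between densities and by -0.12 at 0.5 µM. TPM shifts it by 0.13 for GFP and 0.11 at day 9.

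Counts of genes depend on the pseudocount and the filter. With a pseudocount of 0.1, 550, 700 and 879 genes were 2-fold higher at 0.5, 1 and 2 µM, 238 at every dose, and 2150, 1031 and 1025 differed by GFP, at day 4 and at day 9. With 5, the same counts were 16, 97 and 91, then 5, then 521, 17 and 30, with 1004 between densities and 1299 between DMSO and day 0. With a filter at 10 CPM they were 25, 121 and 126, then 9, then 622, 29, 84, 680 and 1507, and 2 members were left, since Fbxl16 and MGC106740 do not pass it. Summing MGC106740 with DXBay18, chosen after seeing the data, gave 3 members and log2 ratios of 0.20, 0.29 and 0.67.

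No paired analysis was possible because each RNA group has 1 library, which is also why no library was left out in turn. Fbxl16 and MGC106740 rest on 15 and 11 DMSO counts, and MGC106740 also on how reads shared with DXBay18 were divided.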
